A study of Arabidopsis thaliana with 24 samples.

Results

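The cold response of uap1-1 seedlings was read from 8 libraries of a series of 24. uap1-1 is a line of Arabidopsis thaliana in the Col-0 background that is homozygous for a T-DNA insertion, per its labels, and the series title calls UAP1 a splicing factor. Of the 8 libraries, 4 came from seedlings kept at 4 °C for 24 h and 4 from seedlings left under normal conditions, and every gene was compared between them. For reference, 4 cold and 4 control libraries of wild-type (WT) Col-0 seedlings were read in the same way, and the libraries of another line, uap1-2, entered the estimate of the spread alone. Whole seedlings were grown on MS medium, and the labels call the replicates independent. The design text gives 11 days of normal culture and an age of 12 days at harvest, whereas the extraction protocol speaks of 10-day-old seedlings. uap1-1 is 1 line; no source used here gives the position of its insertion or the hour of harvest. No gene of the deposited table carries the name UAP1, so the level of the mutated gene was not checked here. Of the 32833 genes in the table, 21428 had enough counts to be tested and 11405 did not, and 6547 had no count in any of the 8 uap1-1 libraries.

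Cooling of a frost-hardy plant such as Arabidopsis starts cold acclimation. The CBF transcription factors appear soon after the drop in temperature and bind the CRT/DRE element in the promoters of COR genes, whose hydrophilic products protect membranes and chloroplast enzymes. Soluble sugars, proline, flavonoids and unsaturated lipids then accumulate, elongation growth slows, and the circadian clock loses much of its amplitude. Cold also changes the splicing of many pre-mRNAs, which counts per gene cannot show.

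Most of the measured transcriptome of uap1-1 differed between cold and control. By edgeR's quasi-likelihood F test, 11971 of the 21428 genes were called (55.9%), meaning a Benjamini-Hochberg adjusted p under 0.05 over all genes tested; 12975 (60.6%) had an unadjusted p under 0.05. Of the 11971 called genes, 5720 were higher in cold (26.7%) and 6251 were lower (29.2%). For 10322 genes (48.2%) the 4 cold and the 4 control libraries did not overlap, 4992 of them higher (23.3%) and 5330 lower (24.9%), and 9842 genes were both called and without overlap. At least 2-fold, 3211 called genes were higher and 3572 lower. Above that, increases outnumbered decreases: 1262 called genes were at least 4-fold higher and 1121 at least 4-fold lower, 284 were at least 16-fold higher and 123 at least 16-fold lower, and 74 were at least 64-fold higher and 29 at least 64-fold lower. The median log2 fold change over all genes tested was -0.07, and the median standard error (SE) was 0.23. Below, levels are CPM, the count divided by the library total after TMM scaling, fold changes are log2 values of cold over control ± SE, and each list is given by its calls and its median beside that value of -0.07. The calls of each list are to be read beside the 26.7% of all genes called higher and the 29.2% called lower. Libraries are named in the order of replicates 1 to 4. In RNA from whole seedlings, fewer cells of a type and less RNA per cell cannot be told apart.

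The 8 libraries held 19322222 to 25501547 counts, and the first principal component of their log2 CPM, with 73.3% of the variance, separated cold from control. On the second component, with 12.8%, control replicate 2 (71.1) and cold replicate 1 (54.9) stood apart from the rest, at the other end from cold replicate 2 (-55.1). These libraries also differed by transcript length: genes with the longest exonic length sat at a median of -0.44 in control replicate 2 and -0.46 in cold replicate 1 on the log2 scale, and between -0.12 and 0.17 in the other libraries. Without both of them 5484 genes were called higher and 5738 lower, an alternative added after the data had been seen. The direction of small changes depended on the scaling, since the TMM factors of the cold libraries (0.808 to 0.948) lay below those of the controls (0.986 to 1.24). With library totals in place of TMM the calls were 3387 higher and 9745 lower and the median over all genes was -0.50, so small changes are given relative to that shift. No source used here gives the strand setting of the counts. Reads of a gene that overlaps on the opposite strand thus cannot be told apart for at least 74 of the 359 genes named in these results: CBF3, HSFC1, MYB73, COR15B, COR413IM2, RAB18, CAMTA3, PIF1, PIF7, RVE1, LNK3, ELF3, LUX, FKF1, LKP2, CDF5, CO, FLC, SMZ, VIN3, GOLS1, GOLS4, TMT1, TMT2, P5CS1, P5CS2, P5CDH, BAM2, BAM3, BAM6, FAD4, FAD8, TIL, NUC1, SWA1, RS40, SC35, LHCB2.3, LHCB4.2, RCA, CHLM, PORB, OHP2, 4CL1, CHS, F3H, UGT75C1, TT19, MYB11, GL3, PYL7, ABI1, SNRK2.3, ABF1, ABF3, ABF4, ARR8, CRF4, IAA3, CPD, BES1, BZR1, TIP2;1, HSP101, HSFA3, HSFB2B, CAT2, BHLH101, FER1, CYCA2;3, EF1A, UBC21, OLEO1 and GASA6. For at least 7 genes, more than 20% of the 31-base words of the transcripts occur more than once in the genome, in the same gene or elsewhere. These are PRR9, LHCB1.1, LHCB1.4, LHCB2.2, RBCS2B, BIP2 and UBQ10, and their counts are uncertain. Both checks covered the genes of the lists and those named for the highest and lowest fold changes. Genes named only from an annotation pathway or for their difference from WT were not checked in either way.

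**Figure D1:**
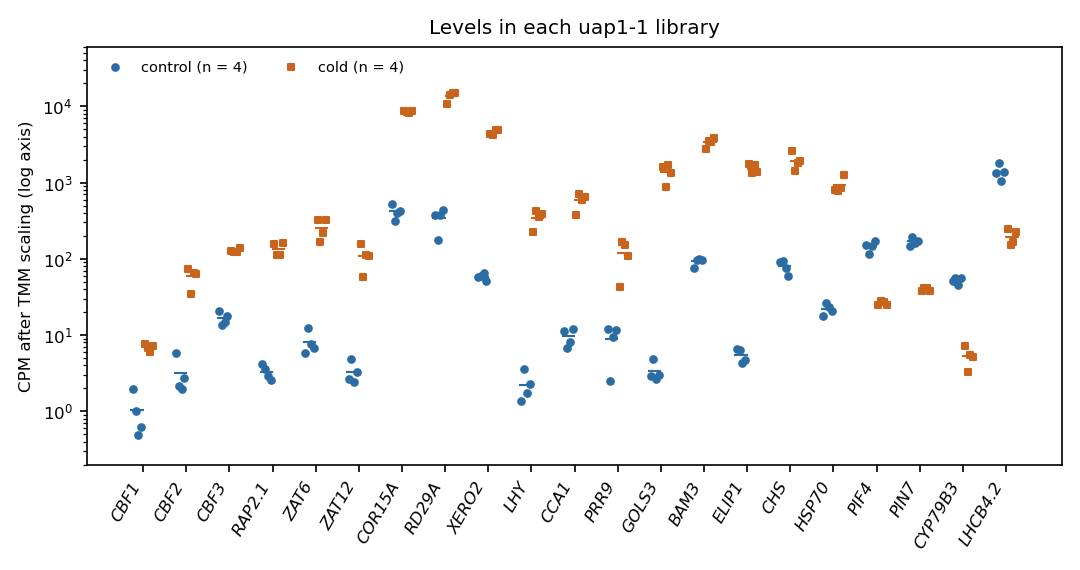
Levels of 21 genes in each uap1-1 library, in CPM after TMM scaling on a log axis; each point is a library, circles are the 4 control libraries, squares the 4 cold libraries, and short lines mark group means. Of the genes from CBF1 to HSP70 each cold library lies above all control libraries, and of PIF4, PIN7, CYP79B3 and LHCB4.2 each lies below.

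The CBF genes and the other transcription factors of the early cold response were higher after 24 h. Of 13 tested members of this list, 13 were called higher and 0 lower, where 26.7% and 29.2% of all genes were, with a median log2 fold change of 2.93. CBF3 (AT4G25480, chromosome 4, 13018010 to 13019400, minus strand), also called DREB1A, had 20.5, 13.4, 14.9 and 18 CPM in the control libraries and 128, 122, 122 and 139 CPM in the cold libraries. CBF2 (AT4G25470, chromosome 4, 13015250 to 13016235, minus strand) had 5.89, 2.14, 1.96 and 2.71 CPM in control and 74.3, 34.8, 64.7 and 63.5 CPM in cold. CBF1 (AT4G25490, chromosome 4, 13021780 to 13022996, minus strand) had 1.99, 1.00, 0.491 and 0.625 CPM in control and 7.63, 6.87, 6.02 and 7.26 CPM in cold. The groups did not overlap for any of these 3 neighbouring genes; control replicate 2 was the lowest control for CBF3, and cold replicate 2 the lowest cold library for CBF2. The log2 fold changes were 2.93 ± 0.21 for CBF3 (edgeR adjusted p = 8.72e-11), 4.22 ± 0.50 for CBF2 (edgeR adjusted p = 2.61e-07) and 2.76 ± 0.48 for CBF1 (edgeR adjusted p = 4.23e-05). RAP2.1, a repressor that binds the same promoter element and is itself a CBF target, rose from 2.58–4.15 CPM to 111–162 CPM (5.36 ± 0.24). The zinc finger factors ZAT6, ZAT10 and ZAT12, induced by cold in parallel with the CBFs, rose by 4.98 ± 0.44, 4.29 ± 0.45 and 5.05 ± 0.52 on the log2 scale. ZAT12 had 2.63, 4.91, 2.45 and 3.25 CPM in control and 158, 57.0, 112 and 110.0 CPM in cold, with cold replicate 2 the lowest cold library, as for ZAT6 and ZAT10. The zinc finger gene CZF1 rose by 2.34 ± 0.22, the ERF factor RAP2.6 by 3.86 ± 0.37, the heat shock factor HSFC1 by 2.72 ± 0.29 and MYB73 by 1.17 ± 0.12.

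COR genes and dehydrins all rose. Of 19 tested members 19 were called higher, and for 19 the groups did not overlap (23.3% of all genes were higher without overlap); the median log2 fold change was 3.53. Together they took 0.419 to 0.455% of all counts in the control libraries and 5.68 to 6.75% in the cold libraries. RD29A (AT5G52310, chromosome 5, 21240717 to 21243644, plus strand), the usual reporter of the CBF pathway, had 371, 179, 373 and 443 CPM in control and 10587, 13977, 15186 and 14866 CPM in cold, a change of 5.32 ± 0.27 (edgeR adjusted p = 3.12e-13). Control replicate 2 was the lowest control and cold replicate 1 the lowest cold library. XERO2 (AT3G50970, chromosome 3, 18940643 to 18941611, plus strand), a dehydrin also known as LTI30, had 58.5, 59.1, 65.1 and 50.7 CPM in control and 4366, 4209.6, 4928 and 4828 CPM in cold (6.30 ± 0.26, edgeR adjusted p = 9.95e-15). The dehydrins ERD10 and COR47 had 3675–5546 and 7444–10676 CPM in cold, from 197–277 and 355–434 CPM. COR15A, whose product acts in the chloroplast stroma, went from 318–532 to 8170.4–8795 CPM, and its neighbour COR15B from 238–324 to 1584–2062 CPM. KIN1, a small hydrophilic protein, rose by 4.94 ± 0.28. Of the membrane proteins of the COR413 family, COR413-PM1 rose by 3.2 ± 0.18, COR413IM1 by 2.55 ± 0.16 and COR413IM2 by 0.75 ± 0.17. RD29B (AT5G52300, chromosome 5, 21237021 to 21239531, plus strand), which responds mainly to abscisic acid, had 5.68, 0.667, 2.53 and 8.79 CPM in control and 276, 702, 328 and 979.9 CPM in cold. Its cold libraries spread more than those of RD29A, with replicates 2 and 4 high, and its log2 fold change was 7.01 ± 0.67 (edgeR adjusted p = 9.38e-09). RAB18, a dehydrin of the same kind of regulation, had the same 2 libraries high, with 156, 389, 139 and 755 CPM in cold against 51.1, 20.3, 34.9 and 64.0 CPM in control.

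The 5 promoters printed here, of genes called higher, were chosen to show 3 kinds of element in the 250 bases before the annotated transcript start: the CRT/DRE core bound by CBFs (CCGAC), the evening element bound by clock factors (AAAATATCT) and the abscisic acid response element ABRE (ACGTGTC). They are given 5′ to 3′ on the strand of the gene, from RefSeq's TAIR10.1 assembly, with capitals for matches, on either strand, of 1 element in each: the CRT/DRE core in RD29A and XERO2, the evening element in GRP7 and the ABRE in ABI5 and LEA46. RD29A lies on the plus strand with its window at chr5:21240467-21240716, and XERO2 on the plus strand at chr3:18940393-18940642. GRP7, a clock-regulated RNA-binding protein, lies on the minus strand at chr2:9266558-9266807. The last pair answers to abscisic acid: the transcription factor gene ABI5 on the minus strand at chr2:15207637-15207886 and the late embryogenesis gene LEA46 on the minus strand at chr5:2090431-2090680.
RD29A: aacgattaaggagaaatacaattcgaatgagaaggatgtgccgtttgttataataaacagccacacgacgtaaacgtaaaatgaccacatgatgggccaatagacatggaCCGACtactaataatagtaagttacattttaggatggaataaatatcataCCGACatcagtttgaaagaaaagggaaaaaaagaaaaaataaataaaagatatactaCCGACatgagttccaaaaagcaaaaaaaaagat
XERO2: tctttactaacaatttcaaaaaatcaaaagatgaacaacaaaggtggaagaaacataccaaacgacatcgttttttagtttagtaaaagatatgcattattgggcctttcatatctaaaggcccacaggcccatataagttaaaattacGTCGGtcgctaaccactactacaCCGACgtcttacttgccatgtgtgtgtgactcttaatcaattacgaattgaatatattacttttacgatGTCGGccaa
GRP7: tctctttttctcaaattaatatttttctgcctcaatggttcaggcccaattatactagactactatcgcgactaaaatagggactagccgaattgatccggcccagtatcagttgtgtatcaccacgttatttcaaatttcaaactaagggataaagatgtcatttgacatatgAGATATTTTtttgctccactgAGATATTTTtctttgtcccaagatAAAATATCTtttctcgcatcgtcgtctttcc
ABI5: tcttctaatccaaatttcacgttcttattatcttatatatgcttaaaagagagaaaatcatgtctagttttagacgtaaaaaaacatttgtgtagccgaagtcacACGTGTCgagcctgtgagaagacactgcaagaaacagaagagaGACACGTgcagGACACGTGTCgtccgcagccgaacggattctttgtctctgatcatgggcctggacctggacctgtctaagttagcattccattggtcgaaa
LEA46: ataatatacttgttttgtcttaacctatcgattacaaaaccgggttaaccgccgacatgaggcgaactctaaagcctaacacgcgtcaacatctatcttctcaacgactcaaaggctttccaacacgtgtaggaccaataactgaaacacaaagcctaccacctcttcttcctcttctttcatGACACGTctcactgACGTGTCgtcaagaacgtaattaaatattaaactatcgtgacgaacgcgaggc
In this window RD29A held 3 copies of the CRT/DRE core, which began 140, 90 and 33 bases before the start, and XERO2 also held 3. GRP7 held 3 evening elements. ABI5 held 4 ABRE letter matches, those at -91 and -88 overlapping each other, and LEA46 held 2, beside 1 CRT/DRE core in lower case. GRP7 is a weak change among these genes, at 0.88 ± 0.20 on the log2 scale, and ABI5 rose by 2.82 ± 0.22. A match of letters is a description and not a known site. Over 19 COR and dehydrin promoters of 300 bases, which add the 50 bases after the start, 7 held the CRT/DRE core, 5 the evening element and 4 the ABRE.

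Of 24 tested genes upstream of the CBFs, 9 were called higher and 8 lower, shares not far from the 26.7% and 29.2% of all genes, with a median of 0.22; with library totals these became 4 and 11, and the median -0.20. ICE1, the activator of CBF3, rose from 38.2–44.3 to 94.8–103 CPM (1.22 ± 0.14, edgeR adjusted p = 8.84e-08). OST1, the kinase that stabilizes ICE1, rose from 13.1–20.8 to 40.0–90.2 CPM (1.81 ± 0.23), and the photoreceptor gene PHYB from 55.8–72.4 to 146–192 CPM (1.4 ± 0.13). The phytochrome-interacting factors, growth-promoting bHLH proteins some of which repress CBF genes, were split. PIF4 (AT2G43010, chromosome 2, 17886101 to 17889087, plus strand) had 154, 116, 147 and 174 CPM in control and 25.0, 27.6, 26.9 and 24.5 CPM in cold. Its log2 fold change was -2.51 ± 0.16 (edgeR adjusted p = 9.46e-12), with the cold libraries close together at a low level. PIF1 changed by -2.32 ± 0.27 and PIF5 by -1.23 ± 0.17, both lower, whereas PIF7 rose by 1.88 ± 0.29 and PIF3 was not called (-0.12 ± 0.16, edgeR adjusted p = 0.518). MYB15, a repressor of CBF genes, was low throughout and had 1.91–2.18 CPM in cold against 0.417–1.38 CPM in control (1.31 ± 0.53). The calmodulin-binding activators CAMTA1 and CAMTA3 were called lower (-0.75 ± 0.22 and -1.19 ± 0.33) although control replicate 2 overlapped the cold group for both. HOS1, which encodes the E3 ligase for ICE1, was not called (0.22 ± 0.16, edgeR adjusted p = 0.262).

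Clock genes mostly rose. Of 26 tested, 19 were called higher and 2 lower, with a median log2 fold change of 1.76. LHY (AT1G01060, chromosome 1, 33365 to 37871, minus strand), of the pair of MYB factors that peak at dawn, had 1.36, 3.57, 1.74 and 2.25 CPM in control and 222, 421, 359 and 390.4 CPM in cold (7.29 ± 0.32, edgeR adjusted p = 2.02e-14). CCA1 (AT2G46830, chromosome 2, 19245591 to 19248915, plus strand), its partner, had 11.3, 6.86, 8.23 and 12.0 CPM in control and 380.0, 719, 593 and 655 CPM in cold (5.93 ± 0.25, edgeR adjusted p = 1.61e-14). For both, cold replicate 1 was the lowest cold library and still far above every control. The related MYB-like genes RVE1, RVE8 and RVE2 rose by 5.39 ± 0.27, 4.19 ± 0.20 and 2.93 ± 0.21, and the coactivator genes LNK3 and LNK4 by 4.02 ± 0.18 and 4.14 ± 0.24. Among the pseudo-response regulators, PRR9 rose from 2.48–12.1 to 42.8–166 CPM and PRR5 from 52.8–87.0 to 303–404 CPM. TOC1, the evening member of that family, had 157, 173, 195 and 173 CPM in control and 310.0, 416, 408 and 454 CPM in cold (1.18 ± 0.14). PRR3 was lower (-2.27 ± 0.57), with 64.1, 23.8, 69.9 and 69.6 CPM in control and 2.24, 23.4, 12.7 and 8.30 CPM in cold, where cold replicate 2 lay just under control replicate 2, the lowest control. PRR7 was not called (-0.41 ± 0.28, edgeR adjusted p = 0.227): its control replicate 2 and cold replicate 1 were the lowest libraries of their groups. The evening complex genes ELF3, ELF4 and LUX were not called, at -0.21 ± 0.23, 0.20 ± 0.20 and -0.21 ± 0.18. CHE, a TCP factor that represses CCA1, fell from 47.4–76.2 to 9.15–11.5 CPM (-2.45 ± 0.24). GI, the photoperiod gene with a role in freezing tolerance, rose by 2.28 ± 0.16, and the F-box genes FKF1, LKP2 and ZTL by 1.70 ± 0.15, 1.96 ± 0.16 and 1.3 ± 0.19. Since no hour of harvest is given for either group, time of day and cold cannot be told apart in these genes. The same holds for clock-driven genes in other paragraphs, such as the CDF genes, GBSS1 and GRP7.

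In the output of the clock toward flowering, 12 of 24 tested genes were called higher and 3 lower (median 0.95). The CDF repressors of photoperiodic flowering rose, with CDF1 at 2.19 ± 0.14, CDF2 at 1.74 ± 0.20, CDF3 at 1.93 ± 0.14 and CDF5 at 2.21 ± 0.30. SMZ and TOE1, AP2-type repressors of flowering, rose by 2.77 ± 0.22 and 1.64 ± 0.16, and SOC1, an integrator that promotes flowering and represses CBF genes, by 1.73 ± 0.16. VIN3 (AT5G57380, chromosome 5, 23246395 to 23249504, minus strand), which the cold of vernalization induces, had 0, 0.0476, 0.0377 and 0.0834 CPM in control and 0.192, 1.82, 1.04 and 1.05 CPM in cold. It was low in each library and higher in cold in each, by 4.46 ± 0.75 (edgeR adjusted p = 2.81e-05). FLC, the repressor that VIN3 helps to silence, was not called: it had 0.0848, 0.333, 0.868 and 0.750 CPM in control and 1.79, 1.12, 0.753 and 1.23 CPM in cold, groups that overlapped (1.24 ± 0.55, edgeR adjusted p = 0.0591). With DESeq2, with a correction for transcript length, or without cold replicate 3 or control replicate 3, FLC was called. FLM and MAF2, of the same MADS-box clade, were lower (-0.60 ± 0.13 and -1.16 ± 0.32), while FT was not called (0.74 ± 0.40, edgeR adjusted p = 0.121).

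Genes for soluble sugars and proline rose more often than they fell, with 17 of 28 called higher and 5 lower (median 1.33). GOLS3 (AT1G09350, chromosome 1, 3019639 to 3021443, plus strand), the cold isoform of galactinol synthase at the start of raffinose synthesis, had 2.93, 4.86, 2.64 and 2.96 CPM in control and 1624, 874, 1688 and 1323 CPM in cold. Its log2 fold change was 8.69 ± 0.34 (edgeR adjusted p = 3.87e-15), and cold replicate 2 was the lowest cold library. GOLS1, GOLS4 and GOLS2 rose by 4.13 ± 0.24, 3.24 ± 0.46 and 1.67 ± 0.32, and RS5, a raffinose synthase gene, by 3.51 ± 0.25. For sucrose, SUS1 rose from 63.3–86.8 to 2135–3479.6 CPM and the sucrose-phosphate synthase genes SPS2F and SPS1F by 4.54 ± 0.30 and 1.62 ± 0.17, whereas SUS4 fell from 34.5–49.2 to 4.34–8.97 CPM. The vacuolar sugar carrier genes TMT2 and TMT1 went opposite ways, with 2.24 ± 0.13 for TMT2 and -0.82 ± 0.21 for TMT1. SWEET16 and SWEET17, sugar channels of the tonoplast, and TPS8, of the trehalose phosphate synthase family, were lower (-2.19 ± 0.33, -1.18 ± 0.35 and -2.05 ± 0.25). P5CS2 (AT3G55610, chromosome 3, 20624020 to 20629295, minus strand), for the first enzyme of proline synthesis, had 96.4, 82.9, 90.2 and 94.9 CPM in control and 989, 1304, 1235 and 1468 CPM in cold (3.78 ± 0.15, edgeR adjusted p = 3.87e-15). Its paralogue P5CS1 rose by 1.44 ± 0.26, and the catabolic genes ERD5 and P5CDH were not called (0.33 ± 0.39 and -0.06 ± 0.13).

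Of 15 starch genes 6 were called higher and 5 lower, against 26.7% and 29.2% of all genes, with a median of 0.12 that was -0.32 with library totals. BAM3 (AT4G17090, chromosome 4, 9604962 to 9607402, minus strand), the chloroplast beta-amylase that releases maltose, had 75.4, 97.2, 99.6 and 97.4 CPM in control and 2729.8, 3524, 3382 and 3833 CPM in cold (5.19 ± 0.21, edgeR adjusted p = 5.66e-15). BAM1 rose by 2.93 ± 0.21 and BAM2 by 1.25 ± 0.16, whereas BAM6 fell from 5.24–16.7 to 0.192–2.86 CPM. GBSS1, which makes amylose and is a target of CCA1 and LHY, rose from 11.1–17.8 to 332–462 CPM (4.75 ± 0.22). DPE1 was lower (-0.79 ± 0.11), and the glucan water dikinase gene SEX1 was not called (0.12 ± 0.22). BAM5 was uneven within both groups, with 2.63, 46.9, 1.47 and 2.21 CPM in control and 35.1, 1.95, 38.6 and 0.984 CPM in cold, and was not called (0.53 ± 1.35).

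For membrane lipids 15 of 25 genes were called higher and 2 lower (median 0.84). TIL, a lipocalin of the plasma membrane that protects against freezing, rose from 83.6–88.4 to 1036–1812 CPM (4.02 ± 0.20). Among the desaturases, SSI2 rose by 1.82 ± 0.12, FAD4 by 2.87 ± 0.23, FAD8, the chloroplast isoform known to act in the cold, by 1.24 ± 0.14, and ADS2 by 1.80 ± 0.20. FAD2, the desaturase of the endoplasmic reticulum, had 1169.5, 1186, 1112 and 1049 CPM in control and 685, 448, 491 and 664 CPM in cold and was lower in each cold library (-0.98 ± 0.20, edgeR adjusted p = 0.000196). FAD3, FAD6 and FAD7 were not called (0.28 ± 0.13, 0.07 ± 0.13 and 0.04 ± 0.15). Genes of galactolipid remodelling rose: DGD1 by 1.65 ± 0.16 and SFR2, which protects the chloroplast envelope on freezing, by 1.18 ± 0.15. PLDALPHA1, a phospholipase D gene, rose by 1.91 ± 0.18. ACBP6, for an acyl-CoA-binding protein, was called lower (-0.53 ± 0.17), a call that was lost without control replicate 2 (-0.39).

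Flavonoid genes rose at the entry, shared and flavonol steps, and 3 genes of the anthocyanin branch were not called, LDOX and UGT79B1 only narrowly. Of 20 tested enzymes and carriers, 16 were called higher and 0 lower, with a median of 3.07. With relative log expression scaling, DESeq2 or a correction for transcript length 18 were called higher, and with library totals 14. CHS (AT5G13930, chromosome 5, 4488476 to 4490264, plus strand), the committed enzyme, had 92.0, 94.8, 75.5 and 59.1 CPM in control and 2616, 1406, 1826 and 1908 CPM in cold (4.59 ± 0.26, edgeR adjusted p = 2.04e-12). The entry genes PAL1, PAL2 and C4H rose by 3.4 ± 0.18, 3.83 ± 0.19 and 2.43 ± 0.22, and the shared steps CHI, F3H and F3'H by 4.93 ± 0.24, 5.76 ± 0.31 and 3.29 ± 0.23. In the flavonol branch FLS1 rose by 4.28 ± 0.22 (edgeR adjusted p = 3.51e-13) and the flavonol glycosyltransferase gene UGT78D1 by 1.96 ± 0.17. UGT78D2, a glycosyltransferase gene of both flavonols and anthocyanins that is placed here with the flavonol branch, rose by 4.96 ± 0.17. UGT78D3 (AT5G17030, chromosome 5, 5603133 to 5604893, minus strand), which adds arabinose to flavonols, had 0, 0.0953, 0.0755 and 0.0834 CPM in control and 108, 47.9, 137 and 72.1 CPM in cold. In the anthocyanin branch DFR had 16.2, 12.6, 11.7 and 12.8 CPM in control and 18.4, 16, 18.8 and 9.47 CPM in cold, and was not called (0.23 ± 0.32, edgeR adjusted p = 0.559). LDOX and UGT79B1 also missed the threshold (0.84 ± 0.36, edgeR adjusted p = 0.0521; 0.83 ± 0.36, edgeR adjusted p = 0.0543). For all 3 it was cold replicate 4 that fell among the controls, the other cold libraries of LDOX and UGT79B1 lying above them. The acyltransferase gene 5MAT, the glucosyltransferase gene UGT75C1 and the carrier gene TT19 were called higher (1.43 ± 0.39, 0.59 ± 0.20 and 2.86 ± 0.43). 4CL3 rose by 4.1 ± 0.22, 4CL1 by 0.67 ± 0.13, and 4CL2 was not called (0.10 ± 0.17).

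**Figure D2:**
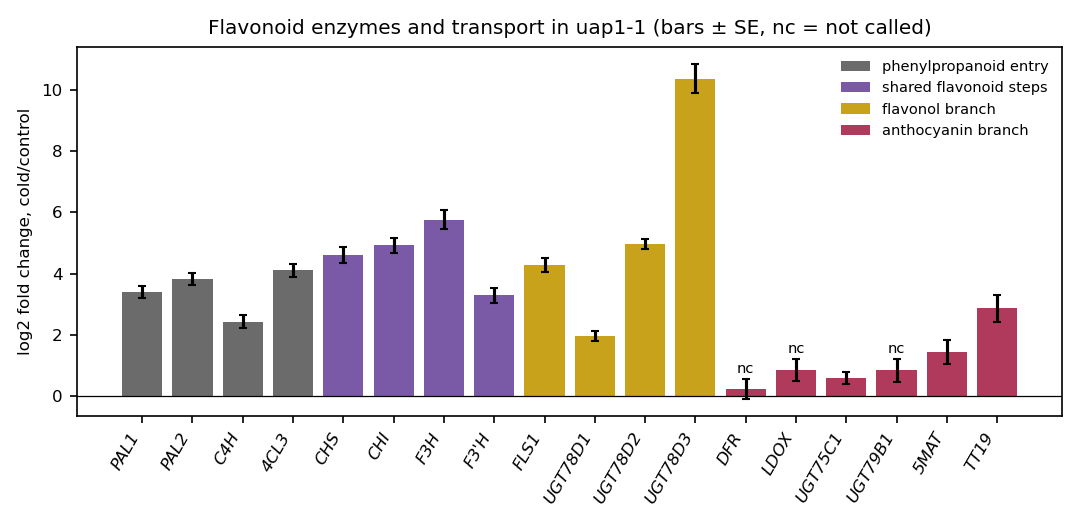
Log2 fold change of cold over control in uap1-1 for 18 flavonoid genes in pathway order, bars with SE from edgeR over 4 libraries a side; colours mark the branch and nc marks genes that were not called. UGT78D2 is drawn with the flavonol branch but is not particular to it. DFR, LDOX and UGT79B1 of the anthocyanin branch are marked nc. The other genes shown were called higher, and 4CL1 and 4CL2 are not among the 18.

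Of 15 flavonoid regulators 8 were called higher and 2 lower (median 1.70). MYB111, MYB12 and MYB11, the activators of flavonol genes, rose by 5.22 ± 0.33, 1.95 ± 0.29 and 2.86 ± 0.52. HY5 and HYH, bZIP factors of light signalling, rose from 18–24.1 to 75.5–77.6 CPM and from 4.1–6.53 to 86.8–165 CPM. Of the anthocyanin regulators, PAP2 and PAP1 rose by 5.54 ± 0.64 and 1.70 ± 0.29 and the bHLH gene TT8 by 2.91 ± 0.37, while its partners TTG1, GL3 and EGL3 were not called (-0.23 ± 0.14, 0.42 ± 0.31 and -0.04 ± 0.37). LBD37, a repressor of anthocyanin genes, fell from 85.0–123 to 24.3–42.2 CPM (-1.55 ± 0.23). LBD39 was called lower at -0.61 ± 0.25, and that call was lost with relative log expression scaling, with DESeq2 and without each of 5 single libraries in turn (cold replicates 2, 3 and 4 and control replicates 2 and 3).

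Early light-induced proteins, which bind chlorophyll under stress, gave some of the steepest rises. ELIP1 (AT3G22840, chromosome 3, 8084405 to 8085669, minus strand) had 6.57, 6.29, 4.26 and 4.71 CPM in control and 1735, 1316, 1676 and 1383 CPM in cold (8.13 ± 0.27, edgeR adjusted p = 1.08e-15). ELIP2 had 2.42, 5.10, 3.09 and 2.29 CPM in control and 2315, 2158, 2403 and 2639.6 CPM in cold (9.53 ± 0.34). All cold libraries of both lay within a narrow band far above the controls. Of 21 genes of chlorophyll synthesis and photoprotection, 8 were called higher and 7 lower, against 26.7% and 29.2% of all genes, with a median of -0.11. Without control replicate 2 and cold replicate 1 these counts were 9 and 4, with a median of 0.12. ZEP, an enzyme of the xanthophyll cycle, rose by 1.65 ± 0.22 and OHP2 by 1.21 ± 0.18. PORB, the light-dependent protochlorophyllide reductase of green tissue, fell from 969–1360.5 to 307–419 CPM (-1.69 ± 0.17) and CHLM, a methyltransferase of the same path, from 305–438 to 98.5–127 CPM (-1.63 ± 0.22).

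The antenna and carbon fixation genes were lower or not called, apart from 1. Of 22 tested, 1 was called higher and 8 lower, against 26.7% and 29.2% of all genes (median -0.44), and with library totals 16 were called lower. LHCB4.2 (AT3G08940, chromosome 3, 2717557 to 2718923, plus strand), a minor antenna protein of photosystem II, had 1354, 1827, 1044 and 1364 CPM in control and 243, 153, 164 and 225 CPM in cold (-2.83 ± 0.27, edgeR adjusted p = 7.86e-09). LHCB2.2, LHCB2.3 and LHCB1.4 changed by -1.57 ± 0.24, -1.71 ± 0.24 and -2.19 ± 0.32, all lower. The gene called higher was LHCB1.1, with 3844, 5931, 3009.7 and 3145 CPM in control and 12940, 7156, 7008 and 9018 CPM in cold (1.18 ± 0.34, edgeR adjusted p = 0.00508). Many of its sequence words occur more than once in the genome, so its count is uncertain. RBCS2B was lower (-1.41 ± 0.25), and RBCS1A and RCA were not called (0.38 ± 0.22 and 0.09 ± 0.19). Control replicate 2 and cold replicate 1 were the highest libraries of their groups for most of the genes named here, and the list took 6.28 to 10.8% of counts in control and 5.91 to 10.4% in cold. Of the 86 tested genes of the chloroplast genome, 0.0% were called higher and 36.0% lower, with a median of -0.97; these transcripts mostly lack a poly(A) tail and were recovered after oligo(dT) selection, and the organelle share of counts was 0.0546 to 0.1555% in control and 0.0341 to 0.058% in cold.

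Genes of abscisic acid, the hormone of drought and cold dehydration, rose more often than they fell. Of 36 tested, 23 were called higher and 7 lower (median 1.75). NCED3, for the rate-limiting step of synthesis, rose from 7.24–17.2 to 104–214 CPM (3.56 ± 0.31), and the catabolic genes CYP707A4, CYP707A1 and CYP707A2 rose by 4.26 ± 0.35, 3.06 ± 0.28 and 3.06 ± 0.27. Among the receptors, PYR1, PYL8 and PYL7 were lower (-2.06 ± 0.34, -1.35 ± 0.26 and -1.0 ± 0.17). The phosphatases that act against the signal rose together: HAB1 by 3.36 ± 0.30, ABI2 by 3.14 ± 0.28, ABI1 by 2.38 ± 0.25, PP2CA by 2.32 ± 0.29 and HAI2 by 2.89 ± 0.42. HAI1 (AT5G59220, chromosome 5, 23894404 to 23896939, minus strand) had 3.09, 1.67, 2.42 and 3.25 CPM in control and 29.7, 37.2, 19.9 and 79.3 CPM in cold (3.99 ± 0.44, edgeR adjusted p = 8.02e-08), with cold replicate 4 the highest. Of the SNRK2 kinases that carry the signal, SNRK2.3 fell from 44.3–53.7 to 7.69–11.8 CPM and SNRK2.2 was not called (-0.42 ± 0.21). OST1, another kinase of this group named above, rose by 1.81. The bZIP factor genes ABI5, ABF2, ABF4, ABF3 and ABF1 rose by 2.82 ± 0.22, 2.03 ± 0.18, 1.62 ± 0.23, 1.52 ± 0.28 and 1.12 ± 0.19, and the NAC factor genes RD26 and NAC019 by 4.56 ± 0.32 and 4.36 ± 0.34. RD20, a target gene for a caleosin, had 15.3, 11.7, 14.4 and 24.4 CPM in control and 126, 269, 148 and 205 CPM in cold. As for RD29B, its cold replicates 2 and 4 were the highest libraries.

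For gibberellin 6 of 18 genes were called higher and 3 lower, against 26.7% and 29.2% of all genes (median 0.23; 5 and 7 with a median of -0.20 by library totals). The deactivating GA2OX1 and GA2OX6, which encode gibberellin 2-oxidases, rose from 1.00–1.70 to 10.7–12.9 CPM and from 3.52–4.26 to 17.7–29.3 CPM. GA2OX3 also rose (4.79 ± 1.04), and the other 3 of these oxidases in the list, GA2OX2, GA2OX4 and GA2OX8, were not called. GA20OX2, a synthesis gene, fell from 1.00–2.25 to 0.0579–0.331 CPM (-3.30 ± 0.48), the receptor gene GID1B rose (1.73 ± 0.24) and the DELLA gene GAI fell (-1.09 ± 0.17). In the auxin list 4 of 22 were called higher and 9 lower (median -0.45; 2 and 12 with -0.88 by library totals). PIN7 (AT1G23080, chromosome 1, 8180189 to 8183650, minus strand), an auxin efflux carrier, had 149.6, 192, 163 and 172 CPM in control and 38.1, 41.7, 40.9 and 38.0 CPM in cold (-2.09 ± 0.14, edgeR adjusted p = 1.5e-11). PIN4 and the influx carrier gene AUX1 were also lower (-1.50 ± 0.20 and -0.95 ± 0.19), whereas PIN3 was called higher (0.69 ± 0.19), a call lost with library totals, and PIN2 was not called, and IAA3 and IAA17 higher (1.12 ± 0.21 and 1.18 ± 0.28). For brassinosteroids 2 of 9 were higher and 6 lower (median -0.43): the synthesis gene CPD, the deactivation gene BAS1 and the transcription factor gene BES1 changed by -1.41 ± 0.20, -1.32 ± 0.27 and -0.83 ± 0.16, all lower, and BR6OX1 went from 1.4–2.04 to 0–0.0615 CPM. The rises of BZR1 and BR6OX2 (0.72 ± 0.16 and 0.60 ± 0.21) were not called with library totals, and BR6OX2 was also not called without cold replicate 2 (0.36), without cold replicate 3 or under the replicate block.

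The other hormones gave calls in both directions, to be read beside the 26.7% higher and 29.2% lower of all genes. Of 13 cytokinin response genes 3 were higher and 1 lower (median 0.10, and -0.33 by library totals); CRF2, CRF3 and CRF4 rose by 1.03 ± 0.15, 1.14 ± 0.24 and 0.98 ± 0.25, and ARR8 was lower (-1.86 ± 0.46) with groups that overlapped. Of 15 ethylene genes 4 were higher and 2 lower (median 0.34, and -0.10 by library totals). ACO1, for ethylene synthesis, fell from 29.2–36.7 to 3.42–4.74 CPM (-3.12 ± 0.25), while ACS6 and ACS2, for the step before it, rose by 1.29 ± 0.22 and 2.85 ± 0.51. The receptor genes ETR2 and ERS2 went opposite ways (-1.61 ± 0.18 and 1.74 ± 0.21). Of 18 jasmonate genes 7 were higher and 3 lower (median 0.16, and -0.23 by library totals): the repressors JAZ1, JAZ9 and JAZ3 rose by 2.82 ± 0.34, 2.56 ± 0.34 and 1.36 ± 0.16, and VSP2 and LOX2 were lower (-1.94 ± 0.38 and -0.84 ± 0.27). JAZ2, at 0.68 ± 0.17, was not called with library totals. Of 11 salicylic acid and immunity genes 3 were higher and 3 lower, again near 26.7% and 29.2% of all genes (median -0.38): CBP60G, PR5 and PAD4 rose by 2.91 ± 0.42, 2.70 ± 0.52 and 0.91 ± 0.20, EDS1 and SAG101 were lower (-1.07 ± 0.20 and -1.03 ± 0.24), and PR1 was not called (-0.38 ± 1.24).

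Among 28 genes of wall growth 9 were called higher and 8 lower, near the shares of all genes of 26.7% and 29.2% (median 0.36; 4 and 10 with -0.07 by library totals). EXPA8 (AT2G40610, chromosome 2, 16948791 to 16950705, minus strand), an expansin, had 46.7, 111, 68.9 and 72.2 CPM in control and 1.60, 0.580, 0.926 and 1.05 CPM in cold (-6.20 ± 0.48, edgeR adjusted p = 2.47e-10). No other expansin of the list fell as far: EXPA6, EXPA4 and EXPA1 changed by -2.17 ± 0.30, -1.99 ± 0.30 and -1.60 ± 0.29. EXPA10 rose from 60.5–94.4 to 411–505 CPM and the wall hydrolase gene XTH20 from 2.33–4.38 to 12.1–23.7 CPM. PRE1, a growth-promoting HLH gene, fell from 3.28–5.17 to 0.0615–0.384 CPM (-4.32 ± 0.51). Of 18 aquaporins 3 were higher and 7 lower (median -0.23). The plasma membrane genes PIP2;5, PIP2;6 and PIP1;4 rose by 2.39 ± 0.26, 1.49 ± 0.24 and 1.14 ± 0.15, whereas PIP1;1 and the vacuolar TIP2;1 were lower (-1.59 ± 0.23 and -1.95 ± 0.31). Of 11 cell cycle genes 0 were called higher and 4 lower (median -0.58), among them CYCD3;1 from 27.2–40.4 to 10.4–15.5 CPM and CYCA2;3 from 10.1–16.7 to 5.21–6.70 CPM. The call of PCNA1 (-0.70 ± 0.23) was lost without cold replicate 4, and that of MCM2 (-0.76 ± 0.31) without that library, cold replicate 1 or control replicates 1, 3 or 4.

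Most heat shock genes rose. Of 22 tested, 16 were called higher and 3 lower (median 1.58). HSP70 (AT3G12580, chromosome 3, 3991117 to 3993886, minus strand), a cytosolic chaperone, had 17.8, 26.6, 23.5 and 20.6 CPM in control and 802, 770.4, 861 and 1254 CPM in cold (5.38 ± 0.38, edgeR adjusted p = 5.19e-11). HSP90.1 and HSP101 rose by 4.18 ± 0.38 and 3.17 ± 0.29. The small heat shock proteins HSP17.6II and HSP17.6A, nearly silent in control, had 27.0–41.5 and 16.4–22.6 CPM in cold against 0.113–0.429 and 0.113–0.382 CPM. HSFA2, a factor of acquired heat tolerance, rose by 2.98 ± 0.46 and the repressor genes HSFB2A and HSFB2B by 1.64 ± 0.29 and 1.53 ± 0.19, whereas HSFA3 and HSP70B were lower (-1.07 ± 0.29 and -1.17 ± 0.21). The chaperone genes of the endoplasmic reticulum, BIP2 and BIP3, were not called (-0.14 ± 0.23 and -2.09 ± 1.00). In redox and respiration 8 of 14 were called higher and 1 lower (median 1.05). CAT2 had 234, 191, 204 and 215 CPM in control and 1674, 1747, 1775 and 2779.8 CPM in cold (3.24 ± 0.24), while CAT3, another catalase gene, fell from 1387–3167 to 612–1166 CPM (-1.24 ± 0.26). The ascorbate peroxidase gene APX1 rose by 1.22 ± 0.23. The mitochondrial bypass genes AOX1A and NDB2 rose by 2.69 ± 0.21 and 3.76 ± 0.25, and AOX1D was not called (1.61 ± 1.03).

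Genes of the nucleolus rose as a group. Of 25 tested, 20 were called higher and 0 lower, with a median of 1.24, and with library totals 15 were higher and 1 lower. NUC1 (AT1G48920, chromosome 1, 18098081 to 18101732, plus strand), the nucleolin gene, had 388, 408, 346 and 366 CPM in control and 1320.5, 973, 1179 and 1168 CPM in cold (1.62 ± 0.15, edgeR adjusted p = 3.79e-09). SWA1, FIB2, WDR12 and REIL2, for pre-rRNA processing and late subunit maturation, rose by 2.38 ± 0.16, 1.75 ± 0.18, 1.49 ± 0.11 and 1.62 ± 0.15. Over the annotation pathway of ribosome biogenesis 50 of 95 genes were called higher and 6 lower (median 0.59), and AT1G27470, for a WD-40 repeat protein, and the export factor gene AT2G03820 rose by 1.85 ± 0.13 and 1.44 ± 0.11. Of 65 proteasome genes 38 were higher and 4 lower (median 0.44): AT4G27680, RPN2B and PA200 rose by 2.28 ± 0.19, 1.53 ± 0.14 and 2.72 ± 0.30. The RNA transport pathway had 79 higher and 22 lower of 177 (median 0.36), with ECT8, a reader of methylated adenosine, and TIF4A-2 at 3.76 ± 0.26 and 1.86 ± 0.13. Annotation pathways, here and below, were counted with TMM scaling alone. With library totals the median over all genes was -0.50 in place of -0.07, and small pathway medians are to be read relative to that shift.

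The series concerns a splicing factor, so genes of RNA processing are given by role. Of 32 tested, 16 were called higher and 4 lower (median 0.35), but with library totals 8 were higher and 6 lower and the median was -0.07. Among the SR splicing regulators SCL30A rose from 35.6–42.5 to 99.5–167 CPM (1.66 ± 0.16, edgeR adjusted p = 1.16e-08), SR45 by 1.34 ± 0.17, SC35 by 1.11 ± 0.12 and RS40 by 1.06 ± 0.12. SCL33, the closest relative of SCL30A, had 58.9, 37.1, 53.5 and 45.2 CPM in control and 20.2, 15.9, 14.2 and 18.8 CPM in cold, lower in each cold library (-1.49 ± 0.16, edgeR adjusted p = 6.81e-08), and RS31 was lower as well (-0.83 ± 0.13). STA1, a pre-mRNA splicing factor needed for cold tolerance, rose from 57.6–70.5 to 119–167 CPM (1.19 ± 0.12). U2AF65A, of the factor that recognizes the 3′ splice site, U1-70K, of the particle that recognizes the 5′ splice site, and the SR gene SR30 were not called (0.02 ± 0.21, 0.07 ± 0.16 and 0.08 ± 0.14), and U2AF65B was called lower (-0.56 ± 0.18) with groups that overlapped. Over the spliceosome pathway of the annotation 87 of 197 genes were called higher and 28 lower (median 0.34), counted with TMM scaling alone. Of 11 cold-linked RNA-binding proteins and helicases 7 were higher and 0 lower (median 0.79). PMH1 and PMH2, helicases of mitochondrial intron splicing, rose by 1.67 ± 0.15 and 0.79 ± 0.11, the cold shock domain genes CSP1 and CSP3 by 1.55 ± 0.21 and 1.1 ± 0.17, and GRP7 from 2937–3824 to 4146–8111 CPM (0.88 ± 0.20). GRP8, the close relative of GRP7, was not called (-0.31 ± 0.20, edgeR adjusted p = 0.19).

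Glucosinolate genes, of the defence compounds of the mustard family, mostly fell. Of 21 tested, 19 were called lower and 0 higher, where 29.2% and 26.7% of all genes were, with a median of -1.39. CYP79B3 (AT2G22330, chromosome 2, 9488413 to 9491404, plus strand), which starts the indolic branch from tryptophan, had 51.1, 56.2, 45.8 and 56.1 CPM in control and 7.24, 3.31, 5.56 and 5.23 CPM in cold (-3.30 ± 0.20, edgeR adjusted p = 5.92e-12). Its paralogue CYP79B2 had 51.3, 2.48, 39.4 and 8.55 CPM in cold, with replicates 1 and 3 at the level of the controls and replicates 2 and 4 low, and was not called (-1.03 ± 0.52, edgeR adjusted p = 0.0986). The regulators MYB34 of the indolic branch and MYB28, MYB29 and MYB76 of the aliphatic branch changed by -2.84 ± 0.18, -1.42 ± 0.16, -1.25 ± 0.25 and -2.86 ± 0.46, all lower. The core and aliphatic enzymes SOT17, CYP83B1, UGT74B1 and CYP79F1 changed by -2.94 ± 0.26, -2.73 ± 0.27, -1.84 ± 0.18 and -1.91 ± 0.28. UGT84A1, which the annotation also places in this pathway, rose from 0.709–0.906 to 31–51.4 CPM; it is known for sinapate glucosylation.

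**Figure D3:**
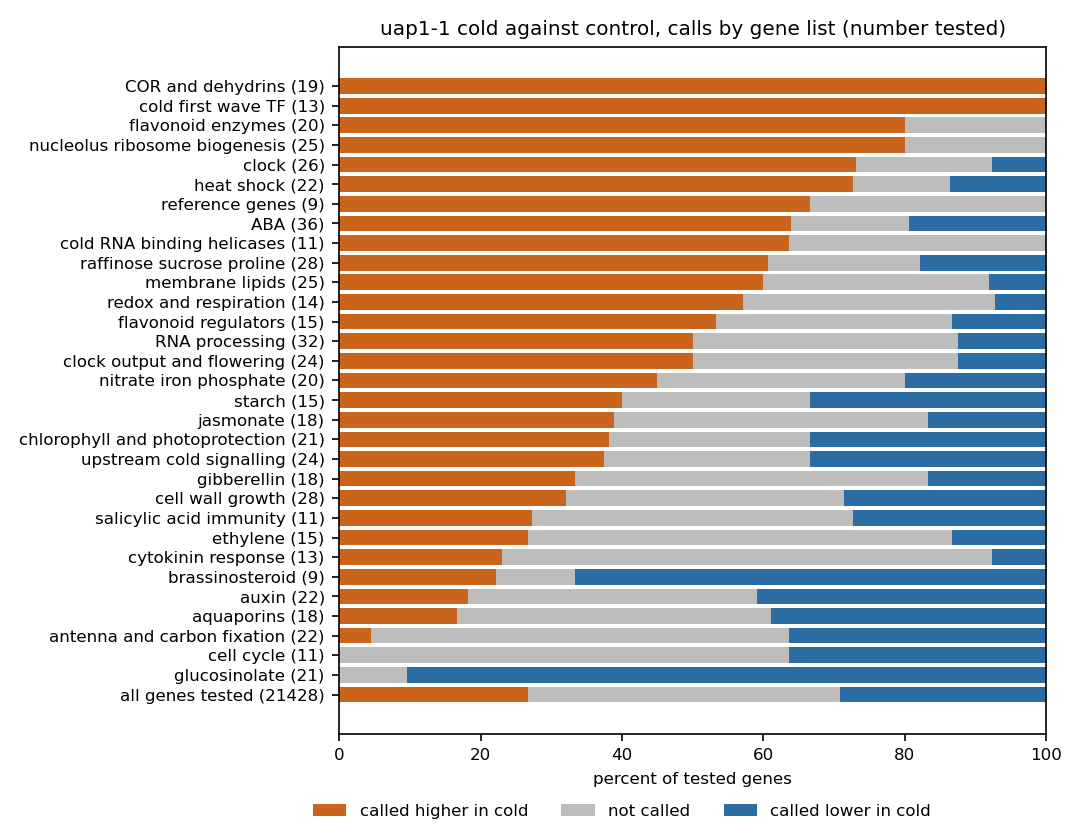
Percent of tested genes of each list called higher, not called and called lower in uap1-1 cold against control, with the number tested in brackets; the lowest bar gives all 21428 genes. Bars for COR genes and for the early transcription factors are higher over their whole length, and the glucosinolate bar is mostly lower.

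Other metabolic pathways of the annotation with many lower genes were small. GPI-anchor synthesis had 0 higher and 20 lower of 27 (median -0.69), with AT3G07140, AT1G12730 and AT3G58130 at -1.14 ± 0.10, -2.54 ± 0.25 and -1.94 ± 0.21. Other glycan degradation had 3 higher and 17 lower of 25 (median -0.98): HEXO3 and AT5G13980 changed by -1.95 ± 0.15 and -1.57 ± 0.18, while AT5G49900, a glucosylceramidase gene, rose by 2.14 ± 0.21. Folate synthesis had 3 higher and 17 lower of 29 (median -0.47), among them FPGS3 from 46.2–93.6 to 9.74–18.5 CPM, and THY-1 and GGH2 at -1.17 ± 0.11 and -1.49 ± 0.15. In sterol synthesis, 7 of 34 were higher and 18 lower (median -0.41), and the squalene epoxidase genes moved apart: SQE3 rose from 21.3–34.3 to 399.7–631 CPM and SQE2 fell from 11.9–17.7 to 2.44–3.18 CPM. SQS2, annotated as an inactive squalene synthase, rose by 3.8 ± 0.27. Of 28 ABC transporters 14 were higher and 4 lower; ABCB19, an auxin exporter, was lower (-1.54 ± 0.16), and ABCB28 and ABCB2 rose by 1.15 ± 0.11 and 1.41 ± 0.15.

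Ferritin genes rose, and 2 bHLH regulators of iron uptake fell. Of 20 nitrate, iron and phosphate genes 9 were called higher and 4 lower (median 0.44). The ferritin genes FER1 and FER3 rose from 96.7–164 to 996–1575 CPM and from 31.3–48.8 to 208–242 CPM. FRO2, the root iron reductase, was low throughout and rose from 0.429–0.792 to 4.04–7.32 CPM (3.12 ± 0.33). BHLH100 had 5.68, 0.857, 0.566 and 0.834 CPM in control and 0.128, 0.0414, 0.0579 and 0.185 CPM in cold (-4.27 ± 1.1), with control replicate 1 far above the other controls; BHLH101 changed by -3.01 ± 0.63 and BHLH39 was not called (-1.80 ± 0.92). NIR1, nitrite reductase, and OPT3, a phloem iron carrier, rose by 1.1 ± 0.22 and 1.18 ± 0.22.

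Among the genes that changed most, several have no place in the lists above. LEA46 (AT5G06760, chromosome 5, 2089445 to 2090430, minus strand), a late embryogenesis protein, had 1.91, 4.76, 1.77 and 2.75 CPM in control and 1728, 1763, 1412 and 2864 CPM in cold (9.45 ± 0.58, edgeR adjusted p = 6.52e-12). AT1G24580 (chromosome 1, 8709941 to 8710824, plus strand), whose product the table names only by a clone, had 0.678, 1.71, 1.21 and 1.42 CPM in control and 619, 632, 431 and 1091 CPM in cold (9.11 ± 0.49). AT4G18422 (chromosome 4, 10176150 to 10176638, minus strand), of unknown function, had 0.382, 0.143, 0.415 and 0.292 CPM in control and 169.8, 67.5, 105 and 116 CPM in cold (8.48 ± 0.51). Each cold library of these 3 stood far above each control. The dynein light chain gene AT4G27360 had 0, 0, 0 and 0.167 CPM in control and 46.2, 30.2, 46.4 and 47.2 CPM in cold. AT3G09590, for a CAP domain protein, and the uncharacterized AT1G19500 had no count in the control libraries and 3.68–6.95 and 2.61–4.87 CPM in cold, at least 174-fold and at least 124-fold higher against a floor of 3 counts over the group. AT1G26790, for a Dof-type zinc finger protein, had 0.0848, 0.0476, 0 and 0 CPM in control and 15.2, 13.9, 16.4 and 21.5 CPM in cold, a ratio of summed counts of 522 with a 95% counting interval of 178 to 2530. On the lower side GASA6, a gibberellin-regulated peptide gene, had 234, 340.1, 233 and 239 CPM in control and 7.63, 2.28, 5.21 and 4.12 CPM in cold (-5.78 ± 0.45). S-ACP-DES6 (AT1G43800, chromosome 1, 16577521 to 16579722, plus strand), a stearoyl-ACP desaturase gene of the family of SSI2, had 69.9, 71.3, 57.8 and 42.7 CPM in control and 1.09, 0.745, 0.753 and 1.91 CPM in cold (-5.77 ± 0.43, edgeR adjusted p = 1.74e-10). Its 2 groups were far apart. AT2G05160, a CCCH zinc finger gene, fell from 5.81–12.6 to 0–0.166 CPM and AT1G33055, uncharacterized, from 4.21–8.08 to 0–0.128 CPM. AT1G12805 had no count in any cold library and 14.8, 10.9, 9.89 and 8.75 CPM in control; against the same floor it was at least 270-fold lower. AT4G34790 also had no count in cold, from 1.53–6.14 CPM, and was at least 74.8-fold lower. The SAUR-like gene AT3G53250, the B-box gene AT1G68190 and the C1 domain gene AT4G14980 fell from 1.99–5.43 to 0–0.0579 CPM, from 29.1–50.4 to 0.256–0.637 CPM and from 4.75–6.78 to 0–0.320 CPM.

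The labels call the tissue whole plant, and markers of several organs were detected. Root markers summed to 55.0 to 71.0 CPM in control and 64.2 to 84.4 CPM in cold, with 1 of 8 called higher and 3 lower: MYB36 and the root hair gene RHD6 were lower (-1.51 ± 0.39 and -1.20 ± 0.48), and SCR, whose call was lost with library totals, was higher (0.72 ± 0.14). The call of RHD6 was lost without each of 6 single libraries in turn. Of the stomatal lineage genes 1 of 6, SPCH, was called higher (1.21 ± 0.30), a call also lost with library totals, and of 3 vascular markers, which summed to 79.2 to 126.5 CPM in control and 156.6 to 292.5 CPM in cold, SUC2 rose by 1.12 ± 0.24 and APL and VND7 were not called. The shoot meristem gene STM was not called (-0.52 ± 0.47), and WUS and CLV3 had too few counts to be tested. Flower markers summed to 3.31 to 21.1 CPM in control and 3.18 to 7.11 CPM in cold, with AP1 called higher (1.83 ± 0.73), a call lost without cold replicate 2 (0.73), without control replicate 2 or 4, without control replicate 2 and cold replicate 1 together, with the 8 libraries alone, under the replicate block and with library totals. The embryo genes OLEO1 and EM6, also known to respond to abscisic acid, had 0.662–1.56 and 0.579–1.11 CPM in cold against 0–0.151 and 0–0.167 CPM. Of 9 genes in use as references, 6 were called higher and 0 lower, and with library totals 2 and 2. Of these 9, PP2AA3 was closest to no change with TMM scaling, with 37.3, 46.6, 34.3 and 40.3 CPM in control and 35.2, 39.5, 40.4 and 42.9 CPM in cold (edgeR adjusted p = 0.978). That ranking depends on the scaling: with library totals SAND was at 0.16. GAPC1 and EF1A rose by 1.53 ± 0.29 and 1.01 ± 0.19, and SAND, UBC21 and UBQ10 by 0.59 ± 0.11, 0.69 ± 0.19 and 0.68 ± 0.25, calls that library totals did not keep. The call of UBQ10 was also lost without each of 5 single libraries in turn. The part of these markers in the results above was not tested.

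The letters of several known elements were unevenly spread over promoters. Shares are of windows from 250 bases before to 50 after the annotated start, read on both strands, for 1261 genes called at least 4-fold higher, 1111 at least 4-fold lower, 9384 not called and 21319 in all. The CRT/DRE core CCGAC was in 21% of the strongly higher promoters, 15.3% of those not called and 10.4% of the strongly lower, against 15.9% of all. The ABRE ACGTGTC was in 12.1%, 4.0% and 2.16%, against 4.94% of all. The evening element AAAATATCT was in 5.15%, 2.58% and 2.79%, against 3.01%. The G-box CACGTG, whose letters overlap the ABRE, was in 15.3%, 7.29% and 8.64%, against 8.64%, and the CGCG-type letters ACGCGT or CGCGTT, which CAMTA factors bind, in 7.06%, 4.53% and 2.52%, against 4.64%. The site II letters TGGGCC, common in ribosomal protein genes, were in 10.2%, 19.3% and 10.9%, against 18%, and the telo-box AAACCCTA in 3.49%, 6.4% and 2.7%, against 5.57%. By number of letter matches, of 139 promoters with 2 or more ABRE matches 57.6% belonged to genes called higher, and of 20265 with none 26.1%. Overlapping matches were counted separately, so 1 stretch can hold 2 ABRE or 2 CAMTA matches, and these numbers are not counts of separate copies. For the CRT/DRE core these shares were 37.6% of 487 and 25.8% of 17928, and for the evening element 53.8% of 26 and 26.6% of 20678. These shares did not rise from 1 match to 2 or more for 3 motifs: for the G-box 34.5% of 267 promoters with 2 or more belonged to genes called higher and 36.1% of 1575 with 1, for the telo-box 28.9% of 76 and 30.0% of 1111, and for site II 23.4% of 1532 and 25.5% of 2310. For the CAMTA letters the shares were 42.0% of 305 and 32.0% of 685. Of the 26 clock genes 7 held the evening element and 10 the ABRE.

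**Figure D4:**
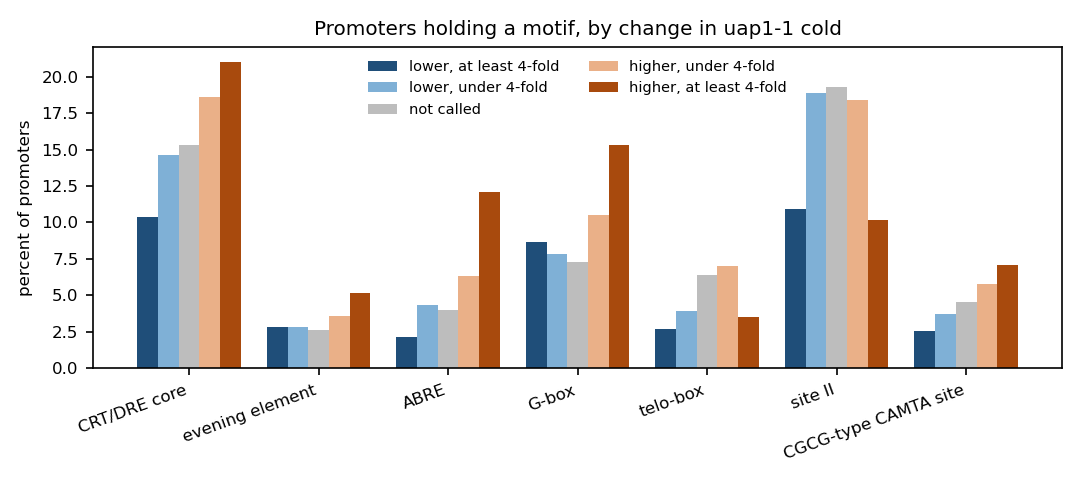
Percent of promoters (250 bases before to 50 after the start, both strands) that hold each motif, for 5 classes of genes by their change in uap1-1 cold. The ABRE bars run from 2.16% in genes at least 4-fold lower to 12.1% in genes at least 4-fold higher, and the site II bars are lowest in both of those classes.

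Calls were counted by exon number as well, since the study concerns splicing. Of 3254 tested genes with 1 exon 27.2% were called higher and 26.6% lower, and of 3903 with 10 or more exons 25.6% and 28.7%. Genes without introns made up 15.8% of all genes, 25.0% of those at least 4-fold higher and 23.4% of those at least 4-fold lower. These shares describe counts per gene, which carry no measure of intron retention or of splice site choice.

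The response of uap1-1 was then set beside that of WT, to ask where the genotypes differ. The test of the difference of the cold responses called 0 of 21428 genes in edgeR (0.0%), with a smallest adjusted p of 0.481; 1842 genes (8.6%) had an unadjusted p under 0.05, and DESeq2 called 1. The median SE of a difference was 0.33 on the log2 scale, so a difference of that size lay within the error of most genes. Of the genes called in uap1-1, 9432 were also called in WT in the same direction, 3 in the other direction, and 2536 were not called in WT, a count that is no test of a difference. The intervals of the difference, uap1-1 minus WT, bound it for single genes (95%, over the same fit): -0.17 to 1.01 for CBF3, -0.12 to 1.17 for COR15A, -0.84 to 0.41 for CCA1, -0.42 to 0.62 for BAM3 and -0.27 to 0.45 for STA1. None of the genes with the smallest unadjusted p passed the adjustment, and their values are given as they stand. ATL79, a RING-type E3 ligase gene, had 1.44, 2.52, 1.28 and 1.25 CPM in uap1-1 control and 30.4, 25.3, 23.7 and 32.8 CPM in cold, a log2 fold change of 4.12 where WT had 2.50 (difference 1.62, 0.93 to 2.3). It was the gene that DESeq2 called (adjusted p = 0.0473). UGT78D4, an annotated relative of the flavonol glycosyltransferase genes, changed by 4.70 in uap1-1 and 5.89 in WT (difference -1.19, -1.70 to -0.68). HAI1 rose by 3.99 in uap1-1 and 1.60 in WT (difference 2.39, 1.22 to 3.56). MAPKKK18, a kinase gene of abscisic acid signalling, changed by 5.97 in uap1-1 and 4.35 in WT (difference 1.63, 0.80 to 2.45). WER, which specifies non-hair cells of the root, had 6.15, 2.86, 5.21 and 4.46 CPM in uap1-1 control and 3.4, 3.10, 1.74 and 2.03 CPM in cold, a change of -0.86 against 0.71 in WT (difference -1.57, -2.35 to -0.80). OFUT7 had 2.29, 0.238, 1.09 and 0.875 CPM in uap1-1 control and 0.192, 0.290, 0.232 and 0.185 CPM in cold, and its difference of -3.25 was called without control replicate 2 (-4.72 to -1.79 with it). AT3G51642 was low throughout, at 0.763–0.943 and 0.289–0.384 CPM (difference -2.70), and CCX1, MGL and WAKL18 differed by 1.56, 1.42 and -1.77. The estimates for RAB18 and FER1 were also higher in uap1-1, by 2.48 (0.78 to 4.19) and 1.51 (0.48 to 2.54), values that did not pass the adjustment. Intervals of genes picked for their difference are not adjusted for that choice, so they do not show that the genotypes differ.

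**Figure D5:**
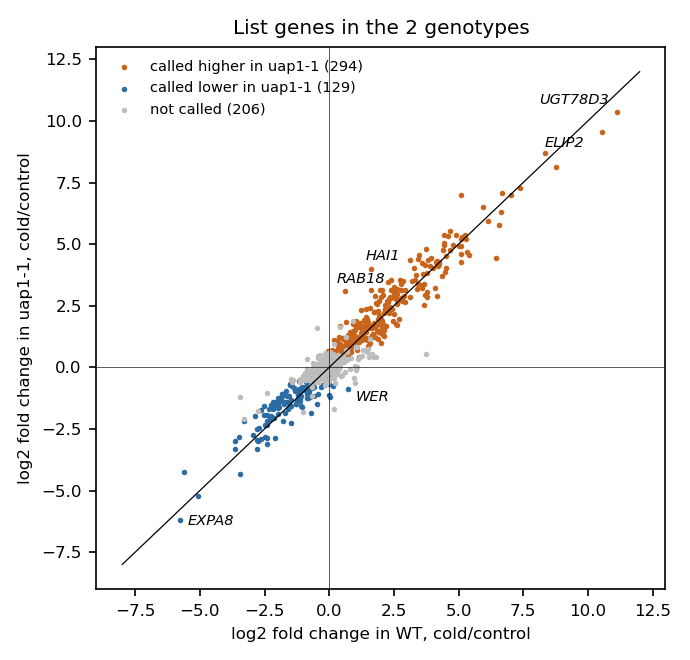
Log2 fold change of cold over control in uap1-1 (vertical) and in WT (horizontal) for the 629 tested list genes, each point a gene, coloured by its call in uap1-1; the line marks equal change. Points lie along the line over the whole range, with HAI1 and RAB18 above it and WER below it. List medians were not equal in uap1-1 and WT, in either direction. They were 3.53 and 2.81 for COR genes and dehydrins, and -0.44 and -1.17 for antenna and carbon fixation genes. For nucleolus genes they were 1.24 and 1.72, and for cell cycle genes -0.58 and -0.07. These differences of medians were not tested.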

How the data were processed

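Poly(A) RNA selected with oligo(dT) was sequenced as paired reads of seedling libraries, per the labels' protocols. The authors' deposited table holds a count and an FPKM value for each of 32833 genes in each library; the deposited FPKM equals the count over exonic length and library total to within 0.005, and only counts were tested. The submitters' processing notes name, with no role or order, the TAIR10 build, HTSeq 0.6.1, HISAT2 2.2.1, DESeq2 1.26.0, SAMtools 0.1.19, cutadapt 1.9.1, StringTie 1.3.3b, FastQC 0.10.1 and bcl2fastq 2.20.0.422; no source used here gives the counting options.

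Counts were fitted with edgeR 4.0.16 in R 4.3.3: filterByExpr (minimum count 10, minimum total 15), TMM scaling, means of 6 groups over 24 libraries, the quasi-likelihood F test with 18 residual degrees of freedom, and Benjamini-Hochberg adjustment over all 21428 genes tested. The SE is the log2 fold change over the square root of F, and intervals of a difference use it with those degrees of freedom. The biological coefficient of variation was 0.26. Replicates differed by more than counting noise: for the 12 pairs within a uap1-1 group, chi-square divided by its degrees of freedom was 8.78 to 88.6. Promoters and positions come from RefSeq's TAIR10.1 annotation. The scripts were tested on simulated data.

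The gene lists and the comparison were chosen with earlier results of these data known. For each list the genes named include up to 5 called members with the smallest adjusted p and up to 2 called the opposite way, besides 11 named whatever their values, the 10 highest and 10 lowest called fold changes above 3 CPM, the 10 smallest p of the difference from WT, and 3 per annotation pathway; other members were named after their values had been seen. Of 648 list genes 629 were tested. The sequence of 1 other promoter and some list members are not reported here. The libraries of uap1-2 and other comparisons of the series are not described here. Intervals of ratios and floors of 3 counts cover counting error only.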

Additional observations from a re-analysis of the deposited data

Results flagged for a closer look

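In 62 of 718 groups of 4 libraries, for the genes named above, the highest or lowest library stood apart from the other 3 by Dixon's criterion on log2 CPM; chance marks about 1 in 20 groups. Of these, 29 were control replicate 2, the library with low counts of long transcripts, and no explanation was tested. Where the other 3 libraries had no count, any count marked the library, whatever its size. This was so for GA2OX3, OLEO1 and AT4G27360 in control and AT3G53250 in cold, to which the rate of 1 in 20 does not apply. Control replicate 1 was apart as the lowest, in CPM, at 15.6 for BAM2, 75.4 for BAM3, 0.0 for UGT78D3, 1.23 for MYB111 and 6.06 for SAG101. Control replicate 1 was apart as the highest, in CPM, at 60.5 for FIB2, 0.0424 for GA2OX3 and 5.68 for BHLH100. Control replicate 2 was apart as the lowest, in CPM, at 36.8 for CAMTA1, 9.24 for PIF7, 2.48 for PRR9, 106.0 for PRR7, 23.8 for PRR3, 27.1 for CDF3, 39.5 for FLM, 23.7 for MAF2, 22.2 for HAB1, 27.1 for ABF3, 16.4 for ABF4, 35.6 for MYB29, 10.1 for CYCA2;3, 29.1 for AT1G68190, 19.0 for ECT8 and 79.9 for AT5G13980. Control replicate 2 was apart as the highest, in CPM, at 76.2 for CHE, 92.6 for SWEET17, 46.9 for BAM5, 12.8 for FAD4, 454.0 for ADS2, 56.1 for REIL2, 261.0 for C4H, 0.476 for PAP2, 30.5 for TTG1, 1040 for GAPC1, 340.0 for GASA6, 34.7 for AT4G27680 and 114.0 for AT2G03820. Control replicate 3 was apart as the lowest, in CPM, at 9.4 for LNK4 and 29.0 for HEXO3. Control replicate 3 was apart as the highest, in CPM, at 0.151 for OLEO1. Control replicate 4 was apart as the highest, in CPM, at 0.167 for AT4G27360.

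Cold replicate 1 was apart as the lowest, in CPM, at 40.0 for ELF3, 284.0 for SPS1F and 325.0 for ZEP. Cold replicate 1 was apart as the highest, in CPM, at 133.0 for F3'H, 22.0 for PYR1, 135.0 for VSP2 and 319.0 for PIP1;4. Cold replicate 2 was apart as the lowest, in CPM, at 748.0 for C4H, 44.1 for IAA17, 1.99 for ACS2, 12.1 for XTH20, 33.2 for CYP79F1 and 30.2 for AT4G27360. Cold replicate 3 was apart as the lowest, in CPM, at 411.0 for EXPA10 and 10.4 for APL. Cold replicate 3 was apart as the highest, in CPM, at 0.0579 for AT3G53250. Cold replicate 4 was apart as the lowest, in CPM, at 16.4 for 4CL2 and 16.4 for HSP17.6A. Cold replicate 4 was apart as the highest, in CPM, at 452.0 for GOLS1, 27.1 for TTG1 and 2780 for CAT2.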

How the results depend on the processing

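With library totals in place of TMM, 3387 genes were called higher and 9745 lower, against 5720 and 6251, and of the 13132 calls 9638 were shared with the TMM fit in the same direction; the cause was not tested. Leaving out each replicate in turn gave 10909 to 11980 calls, 5232 to 5873 higher and 5536 to 6390 lower. The other alternatives kept the counts within 1.5 times: relative log expression scaling, no filter on low counts, DESeq2 1.42.0, the 8 libraries alone, and 2 added after the data had been seen, namely leaving out control replicate 2 with cold replicate 1 (11222 calls) and a correction for transcript length (12516 calls). The difference from WT called 1 gene in DESeq2, and 0 to 2 without each replicate in turn, the 2 being ATL79 and OFUT7 without uap1-1 control replicate 2; the cause was not tested. With a replicate block within each genotype 10769 genes were called, 10701 of them shared with the fit without it. Deviations of each uap1-1 library from its group mean were correlated between control and cold. They correlated at -0.53 to 0.03 for same-numbered libraries and at -0.35 to 0.52 for differently numbered ones. These few values gave no sign of pairing by number, and they cannot show that the samples were unpaired. Over 238 named genes, 3753 values kept their direction and side of the threshold, 50 values of 14 genes lost the call, 4 values of FLC gained it, and none reversed. Library totals ended the calls of BZR1, BR6OX2, JAZ2, SAND, UBC21, UBQ10, SCR, SPCH and AP1, and moved list medians below 0 for the upstream, starch, RNA processing, cytokinin, gibberellin, ethylene, jasmonate and wall lists. They also raised the lower calls to 5 of 26 clock genes, 6 of 24 flowering genes, 4 of 25 lipid genes, 5 of 15 flavonoid regulators, 12 of 21 chlorophyll genes, 3 of 14 redox genes, 5 of 11 salicylic acid genes and 7 of 11 cell cycle genes. At 19322222 to 25501547 counts a library, genes below the filter, such as WUS with 5 counts over the 24 libraries, could not be tested.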
